A study of Drosophila melanogaster with 9 samples.

Results

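The zona pellucida domain genes cyr, dyl and qsm were followed in Drosophila melanogaster pupae in which Blimp-1 was altered, from dissected retinas and the attached optic lobes. They were taken by gene symbol and are 3 of the 904 distinct genes in the authors' deposited tables. All 3 had an entry for Blimp-1 RNAi, and dyl and qsm also had one for Blimp-1 overexpression. The 9 samples formed 3 groups of 3 biological replicates, all at 48 h after puparium formation and 25 °C. The RNAi group carried the driver lGMR GAL4 with Blimp-1 RNAi, and the overexpression group carried lGMR GAL4 with UAS Blimp-1. The control group was lGMR GAL4/+. All groups thus shared the driver, which is active in cells of the developing eye, while the dissected tissue also held optic lobe, and control animals as labelled held no UAS insert. The Blimp-1 protein is a transcriptional repressor with zinc fingers, and its gene responds to the moulting hormone ecdysone. The comparisons ask which transcripts change in the pupal eye and optic lobe when Blimp-1 is targeted by RNAi or overexpressed.

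Zona pellucida domain proteins are secreted or membrane-anchored proteins whose shared domain lets them polymerise into filaments and sheets. In Drosophila epithelia they form part of the apical extracellular matrix, which ties the cell surface to the overlying cuticle and shapes the cells beneath it. In the pupal eye, cone and pigment cells secrete such apical matrix, including the chitin-containing corneal lens. The product of dyl (dusky-like) organises apical protrusions and is needed for normal chitin deposition in bristles. The product of qsm (quasimodo) is an extracellular membrane-anchored protein known for its part in the light response of the circadian clock. The product of cyr belongs to the same domain family.

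Values are normalized read counts, which are reads per gene divided by 1 factor per library. In listed genes, the libraries held 954516 to 1318419 reads in RNAi, 1322202 to 1918155 reads in overexpression and 1189615 to 2306340 reads in control. These sums cover different gene sets, 373 genes for RNAi, 710 for overexpression and 904 for control, so they do not compare sequencing depth. The deposited tables hold only genes that changed by 1 or more on the log2 scale in either direction with an adjusted p below 0.05, so genes without an entry have no value. Blimp-1 averaged 16999 ± 6980 normalized counts in overexpression and 836.7 ± 76.7 in control (SD, n = 3 each). It had no entry for RNAi, so a fall of its transcript in that group is not shown here. Of 9 retinal marker genes, only the photoreceptor surface gene chp had an entry. It lay at 8467 to 17427 normalized counts in RNAi, against 25179 to 28494 in control. None of 5 optic lobe markers had an entry. As background for the markers, 72.4% of the 710 genes listed for overexpression were higher, and 50.7% of the 373 listed for RNAi were lower. Of 5 glial markers, 4 had higher entries in overexpression, with a summed level of 12172 to 15147 normalized counts, against 4973 to 5378 in control. With libraries rescaled to the listed genes by the median ratio or by TMM, the log2 change in overexpression was -0.43 or -0.30 for nrv2, -0.02 or 0.07 for Tret1-1 and 0.06 or 0.15 for wrapper, and none of these passed (limma adjusted p = 0.148, 0.968 and 0.805; edgeR adjusted p = 0.313, 0.849 and 0.565). The remaining glial marker with an entry, e, still passed, at 1.25 or 1.32 (limma adjusted p = 0.00242, edgeR adjusted p = 0.00125). Of 7 hemocyte markers, 4 had higher entries in overexpression, with a summed level of 937.4 to 1528 against 224.4 to 316.7 in control, and Ppn was lower in RNAi. Under these rescalings NimC3 and srp still passed in overexpression (limma adjusted p = 0.0121 and 0.0476, edgeR adjusted p = 0.0085 and 0.0305). NimC4 and NimC2 did not (limma adjusted p = 0.225 and 0.757, edgeR adjusted p = 0.16 and 0.518). Of 5 muscle markers, sls was lower and Zasp52 higher in RNAi, and Zasp66 was higher in overexpression. The part of these markers in the results on cyr, dyl and qsm was not tested. In such bulk samples, fewer cells of a type and less RNA per cell cannot be told apart.

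The members differ in gene structure and location. In the Ensembl gene models for the BDGP6.54 assembly (dm6 coordinates), cyr (FBgn0030001) lies on the minus strand of chromosome X from 8121280 to 8135713. It has 3 annotated transcripts, which encode proteins of 513 or 454 residues. The gene dyl (FBgn0066365) lies on the minus strand of 3L from 4294004 to 4307718, and its 3 transcripts all encode 611 residues. One dyl transcript starts 8.21 kb upstream of the other two. The gene qsm (FBgn0028622) lies on the minus strand of 2R from 20563034 to 20583591. Both qsm transcripts encode 414 residues and contain an intron of 16.1 kb. The deposited values are per gene and do not separate these transcripts. The genes CG2116 and CG10958 lie within the cyr locus on the opposite strand and share 0 exon bases with it. No other annotated gene overlaps a member.

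**Figure D1:**
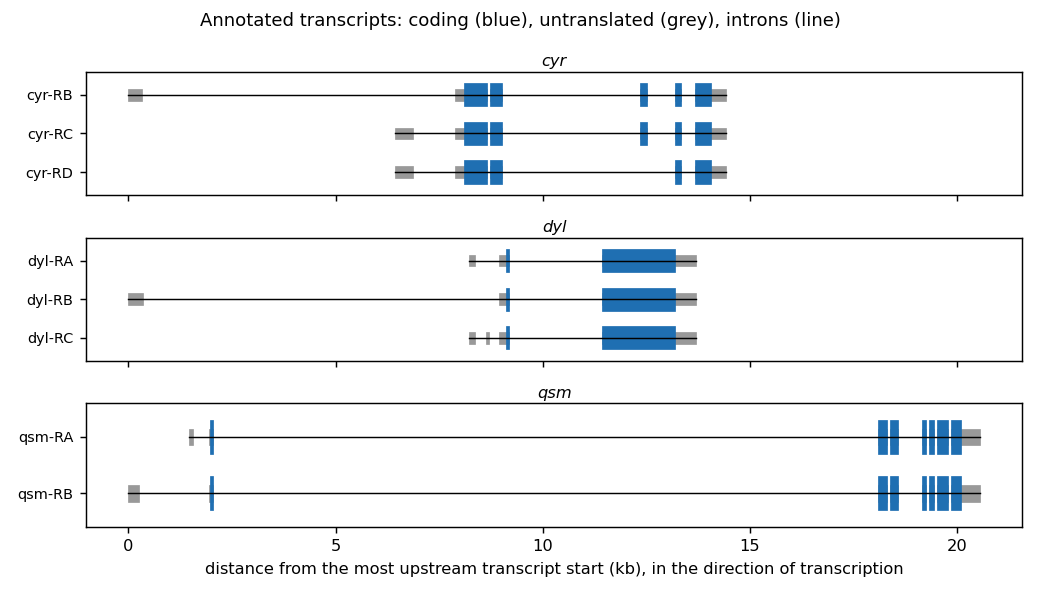
Annotated transcripts of cyr, dyl and qsm, drawn to one scale as distance in kb from the most upstream transcript start of each gene. Wide blue boxes are coding sequence, narrow grey boxes untranslated exon and lines introns; the alternative starts of cyr and dyl and the 16.1 kb intron of qsm stand out.

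Most transcript per length in control came from dyl. Per kb of annotated exon, dyl had 6308 ± 355 normalized counts in control, cyr 365.7 ± 58.3 and qsm 104.6 ± 16.0 (SD, n = 3 each). The ranges of these levels did not overlap. By this level per kb, dyl ranked 25 among the 867 listed genes with an annotated length, cyr 259 and qsm 430. In RNAi the order changed, with dyl at 3064 ± 529 per kb, qsm at 634.7 ± 72.7 and cyr at 60.2 ± 29.3 (SD, n = 3 each). In overexpression dyl had 2351 ± 479 per kb and qsm 297.7 ± 42.4 (SD, n = 3 each).

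In RNAi, cyr fell to a small part of its control level. The RNAi libraries held 78.1, 203.9 and 238.9 normalized counts of cyr, against 1243.5, 999.96 and 920.6 in control. Every RNAi library lay far below every control library, and 1 RNAi library was low even for its group. The mean was 173.6 ± 84.6 in RNAi and 1055 ± 168 in control, a 6.07-fold lower level (SD, n = 3 each). On the scale of log2(normalized count + 1), the change was -2.74 with a standard error of 0.38 and a 95% interval of -3.57 to -1.90. Adjusted p-values were 5.3e-05 in limma, fitted over the 373 genes listed for RNAi, and 1.58e-13 in the authors' deposited table. Of these 373 genes, limma called 50.7% lower and 49.3% higher, so every listed gene passed, and the groups did not overlap in 100% of them. The tables were chosen for such differences, and these shares and p-values are therefore no independent evidence. The exact permutation test of 3 against 3 libraries, two-sided, gave 0.1, the smallest p it allows, for every comparison of a member with control. Without the lowest RNAi library, RNAi replicate 1, the log2 change was -2.24. That library held 84 cyr reads, and the SD in RNAi was 48.7% of the mean, beside a mean counting error of 8.2% per library. No overexpression value exists for cyr in the tables, so its level there was not analysed here.

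In both altered genotypes, dyl was lower than in control. The RNAi libraries held 11012.9, 7782.5 and 10059.5 normalized counts of dyl, and the overexpression libraries 8345.1, 5646.5 and 8149.5, against 21028.0, 19517.4 and 18854.8 in control. All 6 libraries of altered genotypes lay below all 3 control libraries, and replicate 2 was the lowest library in each altered group. The mean of 9618 ± 1660 in RNAi was 2.06-fold below the control mean of 19800.1 ± 1113.8 (SD, n = 3 each). The log2 change was -1.06 with a standard error of 0.21 and a 95% interval of -1.53 to -0.58, and limma gave an adjusted p of 0.000668. This entry stood barely inside the threshold of the authors' deposited table, at a log2 fold change of -1.00098 with an adjusted p of 5.7e-08, and it ranked 188 of 189 lower genes by size. With libraries rescaled to the genes listed for RNAi, the dyl change was -0.63 by the median ratio (limma adjusted p = 0.0307). By TMM it was -1.05 (edgeR adjusted p = 0.00103). The median-ratio rescaling moved the median change of all genes listed for RNAi by 0.42, and TMM by -0.01. In overexpression the mean was 7380 ± 1505, against 19800.1 ± 1113.8 in control, a 2.68-fold lower level (SD, n = 3 each). The log2 change was -1.44 with a standard error of 0.20 and a 95% interval of -1.90 to -0.98, and the limma adjusted p was 0.000116 over the 710 genes listed for overexpression. Of these, limma called 27.6% lower and 72.4% higher, and the groups did not overlap in 99.7%. With libraries rescaled to the listed genes alone, the calls split into 199 lower and 191 higher (median ratio) or 196 and 208 (TMM), in place of 196 and 514. The log2 change of dyl in overexpression was then -3.07 (limma adjusted p = 1.51e-05) or -2.93 (edgeR adjusted p = 1.28e-05). The authors' deposited table gave dyl an adjusted p of 5.99e-09 in overexpression.

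Opposite to cyr and dyl, qsm was higher in both altered genotypes, on the authors' scaling. The RNAi libraries held 1469.0, 1173.7 and 1278.0 normalized counts of qsm, and the overexpression libraries 707.8, 535.8 and 595.3, against 241.9, 178.5 and 225.8 in control. The 3 groups formed separate ranges, with RNAi highest and control lowest. The RNAi mean of 1306.9 ± 149.8 was 6.07-fold above the control mean of 215.4 ± 32.9 (SD, n = 3 each). The log2 change was 2.601 with a standard error of 0.21 and a 95% interval of 2.13 to 3.08. Limma gave an adjusted p of 1.44e-06, beside 8.66e-39 in the authors' deposited table. In overexpression the mean of 613.0 ± 87.3 was 2.85-fold above 215.4 ± 32.9 in control (SD, n = 3 each). The log2 change was 1.51 with a standard error of 0.24 and a 95% interval of 0.96 to 2.05. Limma gave an adjusted p of 0.000238, beside 6.52e-08 in the authors' deposited table. This rise rests on the authors' scaling of libraries: rescaled by the median ratio or by TMM over the listed genes alone, the log2 change of qsm in overexpression was -0.11 (limma adjusted p = 0.74) or -0.011 (edgeR adjusted p = 0.979) and did not pass. These rescalings lowered the median change of all listed genes by 1.62 and 1.53 on the log2 scale, since they centre a gene set that is mostly higher in overexpression. A listed rise of 1.51 is offset by a shift of this size alone, so the rescaled values cannot decide which scaling holds.

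**Figure D2:**
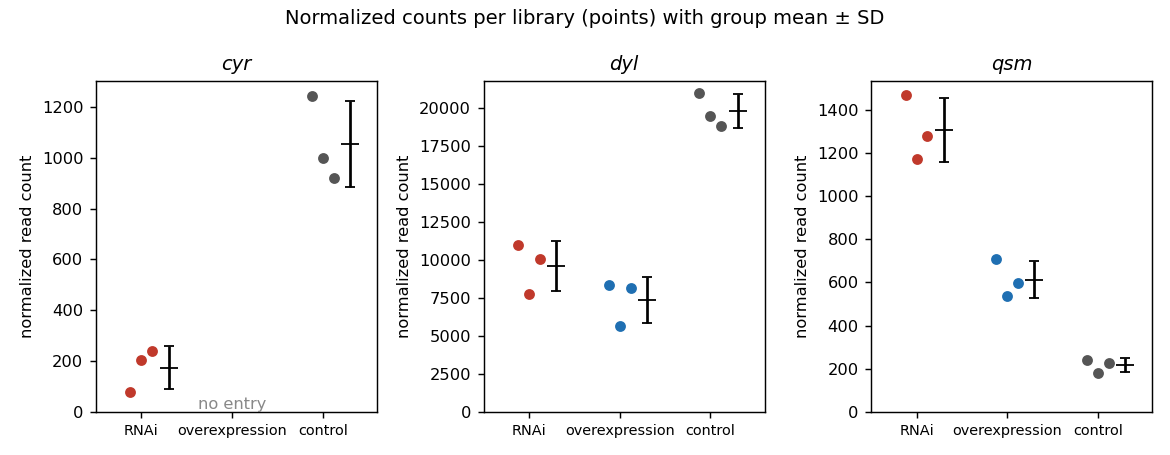
Normalized read counts of cyr, dyl and qsm in each library (points) for RNAi, overexpression and control, with the mean and SD of 3 libraries beside them and a separate axis for each gene. In RNAi, cyr at 78.1 to 238.9 and dyl at 7782.5 to 11012.9 lie below control and qsm at 1173.7 to 1469.0 above it. In overexpression qsm lies above control on the authors' scaling shown here, and cyr has no entry there. The qsm difference did not pass when libraries were rescaled to listed genes by the median ratio (log2 change -0.11, limma adjusted p = 0.74). That rescaling centres a gene set that is mostly higher in overexpression.

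The altered genotypes were also set against each other for the 179 genes with values in all 9 libraries. These genes were chosen for differences from control and not for this one, although the same control libraries entered both choices. The level of qsm was 2.13-fold lower in overexpression than in RNAi, averaging 613.0 ± 87.3 normalized counts in overexpression and 1306.9 ± 149.8 in RNAi (SD, n = 3 each). The log2 difference was -1.09 with a standard error of 0.25 and a 95% interval of -1.62 to -0.57, and the limma adjusted p was 0.000798. With libraries rescaled to the genes of this fit, the qsm difference was -1.53 by the median ratio (limma adjusted p = 2.83e-05) and -2.02 by TMM (edgeR adjusted p = 1.25e-08). All 3 overexpression libraries lay below all 3 RNAi libraries (exact permutation test, two-sided, p = 0.1). For dyl the overexpression libraries, at 5646.5 to 8345.1, overlapped with the RNAi libraries, at 7782.5 to 11012.9 normalized counts. Its log2 difference was -0.39 with a standard error of 0.23 and a 95% interval of -0.88 to 0.10, and it did not pass (limma adjusted p = 0.161; exact permutation test, two-sided, p = 0.3). The labels state no pairing of these libraries. Set together by replicate number, dyl was lower in overexpression in all 3 pairs, at 75.8, 72.6 and 81.0% of the RNAi count. With the replicate number as a block the dyl difference still did not pass (limma adjusted p = 0.0696). With libraries rescaled to the genes of this fit, the dyl difference passed, at -0.83 by the median ratio (limma adjusted p = 0.00757) and -1.33 by TMM (edgeR adjusted p = 0.000116). These rescalings moved the median difference of all 179 genes by -0.44 and -0.93, so the rescaled values cannot decide which scaling holds. Limma called 26.3% of the 179 genes lower and 37.4% higher in overexpression than in RNAi, and the groups did not overlap in 65.9%.

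Counts of the members relative to one another do not depend on how libraries are scaled. In RNAi, cyr made up 0.709, 2.62 and 2.38% of the dyl count in the 3 libraries, against 5.91, 5.12 and 4.88% in control. The relative count was thus lower in every RNAi library, by 2.79-fold in the mean, so cyr was reduced by a larger factor than dyl. The count of qsm was 13.3, 15.1 and 12.7% of the dyl count in RNAi and 8.48, 9.49 and 7.30% in overexpression, against 1.15, 0.915 and 1.20% in control. The qsm count relative to dyl was thus 12.6-fold higher in RNAi and 7.75-fold higher in overexpression than in control, and no library of an altered genotype came near the control range. For cyr relative to qsm, the mean was 13.8 ± 7.4% in RNAi and 494 ± 78% in control (SD, n = 3 each). Each of these 4 comparisons gave p = 0.1 in the exact permutation test, two-sided, the smallest value for 3 against 3 libraries, which is also the value after Benjamini-Hochberg adjustment over the 4. The deposited entries were chosen for a rise of qsm and for falls of dyl and cyr. The direction of qsm relative to either was therefore set by that choice, and these ratios are no independent evidence.

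**Figure D3:**
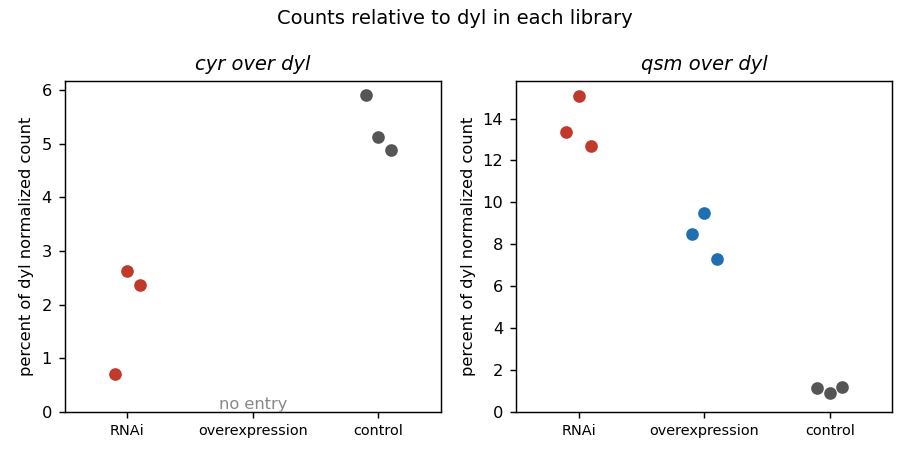
Normalized count of cyr (left) and qsm (right) as a percent of the dyl count in the same library, one point per library, for RNAi, overexpression and control. The cyr share is lower in RNAi (0.709 to 2.62%) than in control (4.88 to 5.91%), and the qsm share is higher in RNAi (12.7 to 15.1%) and in overexpression (7.30 to 9.49%) than in control (0.915 to 1.20%).

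Among listed genes, the members held quite different places by size of change in the authors' deposited tables. For RNAi in the authors' deposited table, cyr ranked 36 of 189 lower genes at a log2 fold change of -2.52, and qsm ranked 53 of 184 higher genes at 2.58. For overexpression in the authors' deposited table, dyl ranked 118 of 196 lower genes at -1.38, and qsm 387 of 514 higher genes at 1.42. Signs were turned so that positive means higher in the altered genotype. In these tables cyr and dyl are annotated with peak expression at the 2 d pupal stage and qsm at 4 d. Marks for Blimp-1 sites stood beside all 3 members in the RNAi tables, and marks for sites of the C/EBP factor Slbo beside dyl and qsm. Of all 373 genes listed for RNAi, 158 (42.4%) carried a Blimp-1 mark and 128 (34.3%) a Slbo mark, so many other listed genes carried them too. The function entry of dyl and qsm was "secreted" in the RNAi tables and "cell surface" in the overexpression tables, so the classes are not the same label for one gene throughout.

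**Figure D4:**
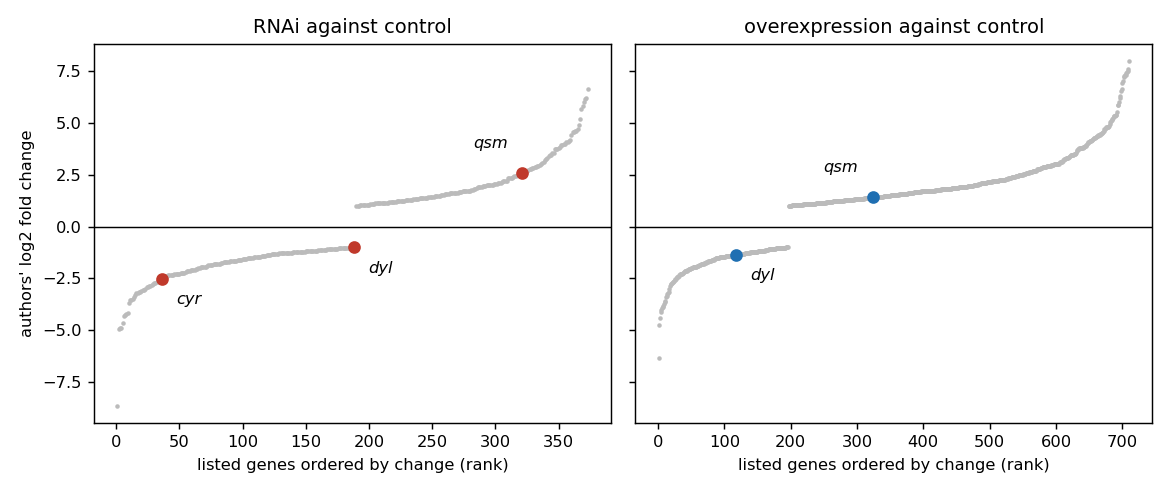
Log2 fold changes of the authors' deposited tables for all listed genes (grey), ordered from lowest to highest, for RNAi (left, 373 genes) and overexpression (right, 710 genes) against control; cyr, dyl and qsm are marked. No gene lies between -1 and 1, because the tables hold only larger changes. At this edge sits dyl for RNAi, and qsm is among the smaller rises for overexpression. There qsm did not pass when libraries were rescaled to listed genes, which centres a set that is mostly higher.

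Few other genes of the zona pellucida family had entries. Of 14 family genes on the list, 3 had an entry for RNAi, the members themselves, with 2 lower and 1 higher. By the authors' deposited table, their median log2 fold change was -1.001, beside -1.003 for all 373 listed genes, of which 50.7% were lower. For overexpression 4 of the 14 had an entry, with dyl lower and pio, qsm and dpy higher on the authors' scaling. With libraries rescaled to the listed genes, qsm and dpy did not pass, at -0.11 and -0.42 by the median ratio (limma adjusted p = 0.74 and 0.436) and -0.011 and -0.20 by TMM (edgeR adjusted p = 0.979 and 0.692). By the authors' deposited table the median was 1.22, beside 1.52 over all 710 listed genes, of which 72.4% were higher. The gene pio (piopio), whose product anchors epithelia to the apical matrix, had 4838.0, 2705.9 and 4125.3 normalized counts in overexpression, against 169.3, 158.3 and 129.7 in control. This was a 25.5-fold rise with no overlap (log2 change 4.63, standard error 0.26, limma adjusted p = 7.1e-07), and it was 3.01 with the median-ratio rescaling. The giant matrix gene dpy (dumpy) had 5895.6, 2249.2 and 5009.6 normalized counts in overexpression, against 2249.2, 1524.9 and 1596.7 in control. One overexpression library of dpy lay at the level of the highest control library, and the log2 change was 1.20 with a standard error of 0.35 (limma adjusted p = 0.0073; exact permutation test, two-sided, p = 0.2). The genes pot, dy, m, nompA, neo, nyo, mey, tyn and zye had no entry in either comparison.

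Notopleural (Np), a membrane-bound serine protease gene whose product cleaves the zona pellucida protein Piopio, was the only one of 7 protease genes on the list with entries. It had 312.4, 348.3 and 553.5 normalized counts in RNAi and 1076.7, 451.6 and 859.8 in overexpression, against 79.9, 60.5 and 68.6 in control. All 6 libraries of altered genotypes were above control, by 5.81-fold in RNAi (limma adjusted p = 1.47e-05) and 11.4-fold in overexpression (limma adjusted p = 1.64e-05). With the rescaling to listed genes, the log2 change of Np in overexpression was 1.80 by the median ratio and 2.01 by TMM, beside 3.41 on the authors' scaling. On the authors' scaling Np and qsm were thus higher in both genotypes and dyl lower in both, but qsm in overexpression did not pass under rescaling to listed genes.

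**Figure D5:**
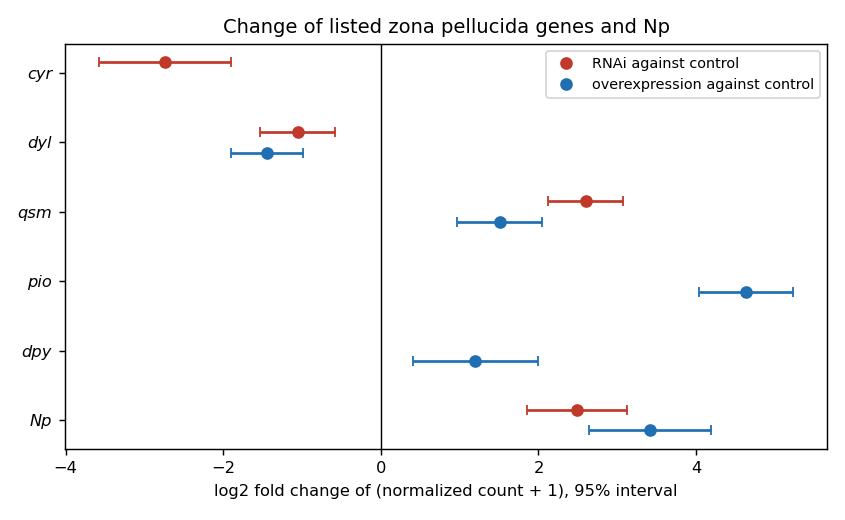
Log2 change of (normalized count + 1) with its 95% interval for the listed zona pellucida genes and the protease gene Np, in RNAi (red) and overexpression (blue) against 3 control libraries. The intervals of cyr and dyl lie below 0 and those of qsm and Np above it on the authors' scaling. With libraries rescaled to listed genes by the median ratio, qsm and dpy in overexpression were at -0.11 and -0.42 and did not pass (limma adjusted p = 0.74 and 0.436). That rescaling centres a gene set that is mostly higher in overexpression.

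Genes of chitin assembly and of the corneal lens were counted beside the members. Of 15 chitin assembly genes, 4 had an entry for RNAi, all higher (reb, Idgf6, obst-A and verm), with a median of 1.63 in the authors' deposited table, beside 49.3% higher and a median of -1.003 over all 373 listed genes. For overexpression 10 had an entry, 7 lower and 3 higher, with a median of -1.65 in the authors' deposited table, beside 27.6% lower and a median of 1.52 over all 710 listed genes. The largest falls were in serp, kkv, Cda5 and Cht7, at -2.66, -2.08, -1.96 and -1.95 in the authors' deposited table. The higher ones were reb, Cht10 and Idgf6. With the rescaling to listed genes none of these 3 passed: by the median ratio and by TMM, reb was at 0.56 and 0.62, Cht10 at 0.27 and 0.22, and Idgf6 at -0.26 and -0.16 (limma adjusted p = 0.384, 0.683 and 0.363; edgeR adjusted p = 0.313, 0.738 and 0.598). The deacetylase gene verm averaged 25890 ± 3529 normalized counts in RNAi and 3248 ± 94 in overexpression, against 11834 ± 3611 in control (SD, n = 3 each). It thus rose in RNAi, with a log2 change of 1.16, and fell in overexpression, with -1.82, whereas dyl was lower in both. Of 5 corneal lens genes, Gasp had an entry for RNAi, at 2.19-fold higher. In overexpression Gasp was 2.65-fold and Cpr66D 4.64-fold lower, while retinin was 80.3-fold and Cpr72Ec 9.27-fold higher. The control libraries held only 9.41 to 43.18 normalized counts of retinin, and 4059 to 15271 of Cpr72Ec, so these 2 folds are imprecise. With the median-ratio rescaling the log2 changes were -3.02 for Gasp, -3.84 for Cpr66D, 4.85 for retinin and 1.74 for Cpr72Ec. On the authors' scaling limma called all these entries, as it called every gene listed for RNAi or for overexpression against control.

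The genes with the most similar profiles were found by Pearson correlation of log2(normalized count + 1), as a description. Over 9 libraries and 172 genes, dyl was closest to Frl, a formin gene acting on actin, with r = 0.987, and then to CG43078 and CG10348, with r = 0.981 each. Frl averaged 1687 normalized counts in RNAi and 1411 in overexpression, against 3501 in control. For qsm the closest were CG30427, CG15046 and CG12947, with r = 0.991, 0.987 and 0.986. CG30427 averaged 2910 normalized counts in RNAi and 814.7 in overexpression, against 199.3 in control, the same order of groups as qsm. For cyr, with 6 libraries and 358 genes, the closest were Strn-Mlck, CG15861 and CG32750, with r = 0.990, 0.988 and 0.985. Strn-Mlck averaged 139.9 normalized counts in RNAi, against 525.1 in control. Libraries of a group share their genotype and all listed genes were chosen for a group difference, so high values of r arise readily here.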

How the data were processed

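Per the labels' protocols, stranded mRNA libraries used 250 ng of total RNA each. Per the submitters' processing notes, the build was dm6 and the software DESeq2, bedtools 2.26.0, Subread 1.6.3, Picard 2.18.20 and STAR 2.6.1d. What each did, and whether counting used strand, are not given in the sources used. In all, the authors deposited 4 tables of selected genes with a normalized count signal per library, a log2 fold change (control over altered, turned around here) and an adjusted p-value. Each library's values were whole multiples of 1 step: 100% of nonzero values gave whole reads within 0.02, and 179 genes listed in both comparisons had identical control values.

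Limma 3.58.1 in R 4.3.3 was fitted to log2(normalized count + 1) over all genes of a comparison (373, 710 and 179), with Benjamini-Hochberg adjustment and a threshold of 0.05. Folds are ratios of group means. EdgeR 4.0.16 and DESeq2 1.42.0 on recovered reads were alternatives; edgeR called 189 lower and 184 higher genes for RNAi, 196 and 514 for overexpression, and 46 lower and 69 higher for overexpression against RNAi. The fits were tested on simulated data. P-values rest on the spread between the 3 samples per group, which limma moderates with the values of all genes in the fit. The fit of overexpression against RNAi estimated this spread from all 3 groups, control included. The titles give replicate numbers but state no pairing. Overexpression and RNAi libraries of the same number were set together, as their deviations from group means correlated at 0.28, 0.55 and 0.18.

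The members and gene lists were chosen with earlier results of these data known. The design named the members and up to 4 entries per list and comparison, by size of change. It also named the 3 genes most correlated with each member, among those with a mean of 20 normalized counts or more. Other genes of the lists are named here too. The promoter motif search of the design was not run.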

Additional observations from a re-analysis of the deposited data

How the results depend on the processing

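Over the alternatives, 2 scalings over the listed genes alone changed results. In overexpression against control they centre a gene set that is mostly higher, and the change of qsm was then -0.11 (median ratio) and -0.011 (TMM with edgeR), neither past the threshold. In overexpression against RNAi dyl passed at -0.83 and -1.33, where the median of all listed genes also moved lower. These 2 values cannot decide which scaling holds. Higher genes in overexpression against control numbered 191 and 208 in place of 514, and lower genes in overexpression against RNAi 90 in place of 47 under TMM. The median change of all listed genes moved by -1.62 and -1.53 in overexpression against control, by 0.42 and -0.01 in RNAi against control, and by -0.44 and -0.93 in overexpression against RNAi. Pseudocounts of 0.5 and 5, a minimum mean of 50 normalized counts, edgeR, DESeq2 and leaving out each replicate kept each member's direction and side of the threshold. Without 1 replicate, cyr in RNAi ranged from -3.04 to -2.24, dyl from -1.16 to -0.91 and qsm from 2.47 to 2.69. In overexpression dyl ranged from -1.54 to -1.26 and qsm from 1.38 to 1.599. For overexpression against RNAi, dyl, which did not pass, ranged from -0.53 to -0.21 and qsm from -1.20 to -1.002.

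With the replicate number as a block, cyr, dyl and qsm in RNAi stayed at -2.74, -1.06 and 2.601 (limma adjusted p = 0.000269, 0.000432 and 1.12e-05), and the block changed no other call of a member. Deviations of same-numbered libraries correlated at 0.33, 0.08 and 0.05 between RNAi and control and at 0.42, 0.21 and -0.00078 between overexpression and control, so those numbers were not taken as pairs; not every library correlated best with its own number. The block with edgeR was added after seeing the data. Counting error was small for every member, with at least 84 reads per library.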

Other observations

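No member had another listed gene close by. The nearest listed gene to qsm was Hil, 23.3 kb away and lower in RNAi. For dyl it was ImpL2, 57.9 kb away and also lower in RNAi, and for cyr it was Tbh, 93.9 kb away and lower in overexpression. Strn-Mlck, closest to cyr over the RNAi and control libraries, averaged 2848 normalized counts in overexpression and 525.1 in control, so likeness to cyr over 6 libraries gives no value for cyr in overexpression.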
